A study of Mus musculus with 8 samples.

Results

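The junctions described here were read from a primer at a locus on chromosome 14, called site 2 and lying in Supt16. Their other side mapped to other chromosomes, in Neuro-2a cells, a mouse neuroblastoma line. The non-targeting library, in which no sgRNA directed Cas9 to that locus, gave 48 of them. Members were taken from the off-cut lists of the 4 site 2 libraries. A junction was the 5′ end and strand of the prey read, with repeated lines counted once, on chromosomes 1 to 19 except chromosome 14. This gave 350 junctions from 370 reads, of 11345 distinct junctions in all 8 libraries of the series. The same rule gave 4163 junctions in the 4 libraries made at the other target, site 1 in Dach1 on the same chromosome. A junction seen in more than 1 library counts once in each, and the 350 junctions lay at 346 distinct positions.

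Translocation sequencing starts from a biotinylated primer beside a chosen cut and reads on into whatever sequence follows, called the prey. Joins to another chromosome arise when the broken bait end is ligated to an end broken elsewhere, usually by non-homologous end joining. Supt16, the bait gene (chromosome 14, 52160419 to 52197239, mm10), encodes the large subunit of the FACT histone chaperone. Ataxin-7 is a subunit of the SAGA chromatin-modifying complex, and expansion of its polyglutamine tract causes spinocerebellar ataxia type 7.

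The 4 libraries came from cells given Cas9 and GFP from 1 plasmid. The 10Q and 92Q libraries had the site 2 sgRNA and transiently expressed ataxin-7 with 10 or 92 glutamines. The sgRNA-only library had the site 2 sgRNA without ataxin-7. The non-targeting library had a non-targeting sgRNA, without ataxin-7, and carries the Supt16 name in its label. Transient expression adds the transgene to whatever ataxin-7 the cells make themselves, and the files hold no expression values with which to check the transgene or the cell type. Per the labels, GFP-positive cells were sorted 48 h after transfection. Each library pooled 3 transfections, so every condition was 1 library with no replicate. Every interval and Fisher's exact test below covers counting error between libraries only. The closing paired test of site 2 against site 1 instead uses the spread between conditions.

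The guide and the primer that define site 2 are shown because the guide sets the intended cut and the primer the bait side. Neither fixes the prey position, and the non-targeting library did not have this guide. Capitals mark the last 8 bases of each, for the guide the end next to the cut and for the primer the end that is extended.
site 2 sgRNA: ctcgcagccctcCACCGTAA
site 2 bait primer: ggtttcccctccGCTCTTTA

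Depth was low. The site 2 libraries held 118 (10Q), 305 (92Q), 1527 (sgRNA only) and 986 (non-targeting) reads over both lists. These reads lay at 104, 213, 578 and 59 distinct junctions, in the same order. The member junctions rested on 62, 98, 157 and 53 reads. Of the 350 junctions, 341 were seen in a single read. All reads of the series carried the same instrument, run, flow cell and lane in their names. Of these read names, 2 were listed in both the 92Q and the sgRNA-only library of site 2, in the on-cut lists. No such name belonged to an interchromosomal junction.

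The sgRNA-only library held the most interchromosomal junctions and the non-targeting library the fewest. There were 149 junctions with the sgRNA alone (exact Poisson 95% interval 126 to 175), 96 with 92Q (77.8 to 117), 57 with 10Q (43.2 to 73.9) and 48 without a targeting sgRNA (35.4 to 63.6). The intervals of the 10Q and non-targeting libraries overlapped, but those libraries differ in ataxin-7 as well as in the sgRNA. The sgRNA-only and non-targeting libraries, both without ataxin-7, had intervals that did not overlap. Differences in count were not tested. These counts were not scaled to sequencing effort, which the lists do not give.

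Mapping quality, the aligner's score for how securely a read is placed, divided the junctions unequally. A quality of 30 or more was reached by 141 of the 350 junctions, 40.3% (35.1 to 45.6, exact Clopper-Pearson). Quality 0 was given to 99. The well-mapped share was 26.3% in the 10Q library (15 of 57), 40.6% in the 92Q library (39 of 96), 39.6% in the sgRNA-only library (59 of 149) and 58.3% in the non-targeting library (28 of 48). It was thus lowest with 10Q and highest without a targeting sgRNA. The 92Q share lay 14.3 points above the 10Q share (Fisher's exact test, two-sided, p = 0.0823, adjusted p = 0.574). The sgRNA-only share lay 18.7 points below the non-targeting share, 39.6% against 58.3% (Fisher's exact test, p = 0.0296, adjusted p = 0.474 over the 16 share tests). Neither difference passed the adjusted test. At site 1 the share was 39.7% with 10Q, 44.4% with 92Q, 39.3% with the sgRNA alone and 62.6% without a targeting sgRNA, so the non-targeting library was highest there too, but 10Q was not lowest. For sgRNA only and non-targeting, the site 2 share minus the site 1 share was 0.347 and -4.29 points (Fisher's exact test, both adjusted p = 1).

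**Figure D1:**
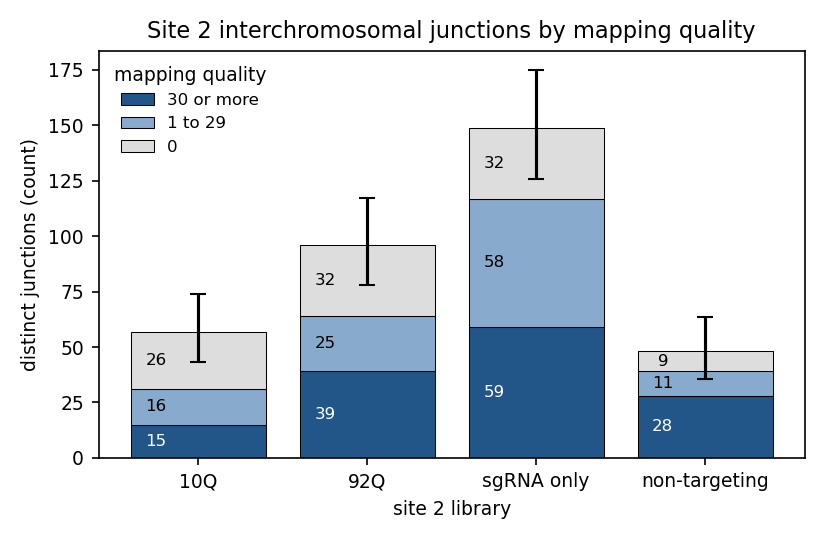
Distinct interchromosomal junctions (vertical axis, count) in each site 2 library, with bars divided by mapping quality and exact Poisson 95% intervals on the totals. The well-mapped parts hold 15, 39, 59 and 28 junctions, so the 10Q library holds more junctions than the non-targeting one in total but fewer once quality 30 is required.

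The well-mapped and poorly mapped junctions also differed in how their reads lay on the genome. The commonest alignment covered 162 reference bases in all 4 libraries. It was covered by 113 of the 141 well-mapped junctions (80.1%) and by 31 of the 209 others (14.8%). No well-mapped junction covered 152 bases or fewer, while 64 of the others did. Spans ran from 154 to 164 bp among the well-mapped junctions and from 140 to 189 bp overall. The same held at site 1 around a commonest span of 141 bp, covered by 94.6% of well-mapped and 47.1% of other junctions in the 10Q library there. Mapping quality is computed from the same alignment, so these are 2 views of 1 measurement and were not tested. The 10Q library had the smallest share of full-span reads among its poorly mapped junctions, 1 of 42, against 10 of 57 with 92Q, 18 of 90 with the sgRNA alone and 2 of 20 without a targeting sgRNA.

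**Figure D2:**
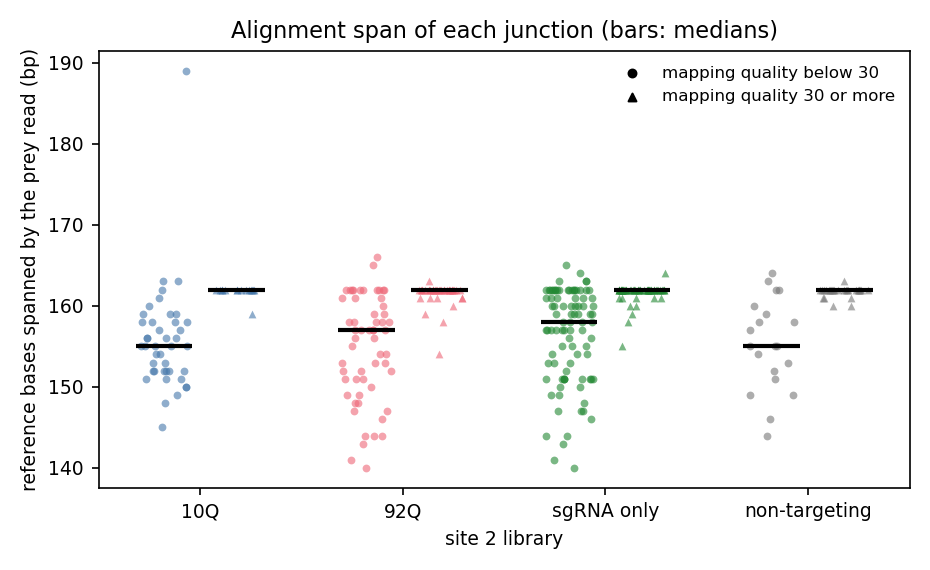
Reference bases spanned by the prey read (vertical axis, bp) for each junction of the 4 site 2 libraries, with circles for mapping quality below 30, triangles for 30 or more, and bars at the medians. Well-mapped junctions sit at 162 bp with a range of 154 to 164, and the others have medians of 155 to 158 bp.

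Every one of the 18 chromosomes received junctions, and with any mapping quality longer chromosomes tended to receive more. For these counts, observed and length-expected values had Pearson's r = 0.64 and Spearman's rho = 0.63. This is a description over 18 chromosomes that share the same libraries. With the 4 libraries together the ratio of observed to expected ran from 0.521 on chromosome 18 (7 junctions) to 1.55 on chromosome 15 (24 junctions, 0.993 to 2.31), and all 18 intervals included 1. Chromosome 16 stood at 0.548 (8 junctions, 0.237 to 1.08) and chromosome 3 at 0.623 (15 junctions, 0.349 to 1.03). Among well-mapped junctions chromosome 17 was the only one whose interval lay above 1, at 2.11 (12 junctions, 1.09 to 3.69), while with any mapping quality it stood at 1.21 (0.703 to 1.93). Well-mapped ratios spread from 0.369 on chromosome 18 (2 junctions) to that 2.11. The correlation of well-mapped counts with length was not computed, so proportion to length is not shown for them. An interval that leaves out 1 on 1 of 18 chromosomes carries no adjustment for the number examined.

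Single libraries departed from length on a few chromosomes. The sgRNA-only library had 17 junctions on chromosome 8, a ratio of 2.06 (1.20 to 3.30), but only 4 of the 17 were well mapped. The 10Q library had 8 junctions on chromosome 10, a ratio of 2.51 (1.08 to 4.95), and 5 on chromosome 19, a ratio of 3.43 (1.11 to 8.01), with 3 and 1 of them well mapped. It had 0 on chromosomes 13 and 18, where 2.93 and 2.19 were expected. Over the 4 site 1 libraries together, chromosome 8 stood at 1.26 (1.12 to 1.41), chromosome 10 at 1.20 (1.06 to 1.35) and chromosome 17, among well-mapped junctions, at 1.29 (1.03 to 1.59), all with intervals above 1. Chromosome 19 had an interval below 1 at site 1, at 0.724 (0.571 to 0.905). With any mapping quality, 4 site 1 intervals lay above 1 (chromosomes 5, 8, 10 and 18) and 4 below (3, 9, 16 and 19). Chromosome 18, the lowest at site 2, stood at 1.16 at site 1 (1.003 to 1.34), and at 0.846 when well mapped. Over the 18 chromosomes the ratios of the 2 sites had Pearson's r = 0.32 and Spearman's rho = 0.35. In the 92Q and non-targeting libraries of site 2 no chromosome had an interval above 1. The non-targeting library had 0 junctions on 5 chromosomes, with between 1.23 (chromosome 19) and 3.08 (chromosome 6) expected. Expected counts took every chromosome at equal copy number, and the karyotype of the line was not analysed here.

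**Figure D3:**
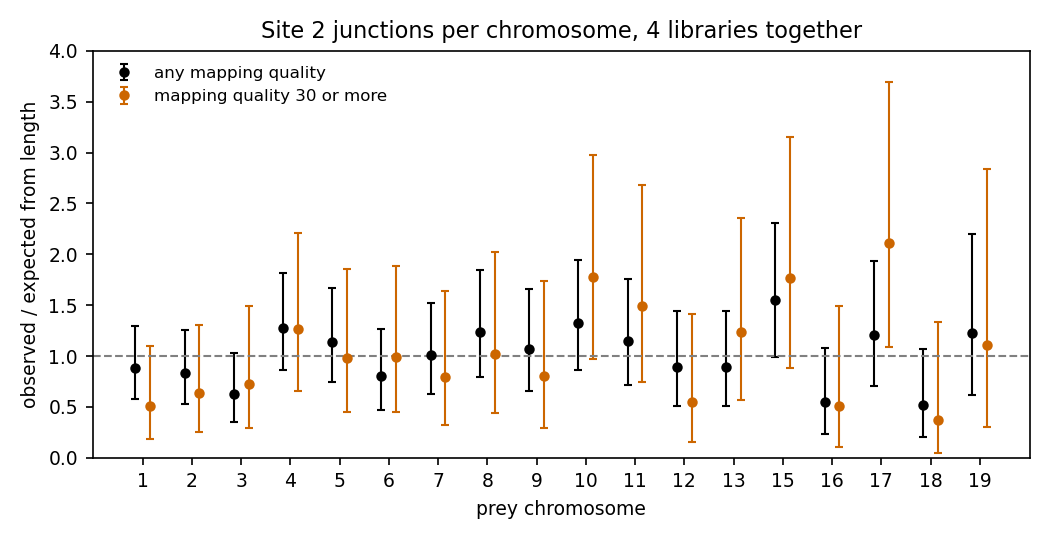
Ratio of observed to length-expected junctions (vertical axis) for each prey chromosome (horizontal axis), 4 site 2 libraries together, with exact Poisson 95% intervals and a dashed line at 1. All 18 intervals of the 350 junctions include 1, and of the 141 well-mapped junctions only chromosome 17, at 2.11, has an interval above it.

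Along the chromosomes, counted from the centromeric end, 4 stretches of equal length held 87, 75, 77 and 111 junctions, so the most distal one held 31.7%. In the non-targeting library it held 22 of 48 junctions, 45.8%, against 32.2% with the sgRNA alone, 27.1% with 92Q and 26.3% with 10Q. These shares were not tested.

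Prey strand was close to even. Plus-strand junctions numbered 172 of 350, 49.1% (43.8 to 54.5), and their share was 49.1% in the 10Q library, 46.9% with 92Q, 49.0% with the sgRNA alone and 54.2% without a targeting sgRNA. The 92Q share minus the 10Q share was -2.25 points and the sgRNA-only minus the non-targeting share -5.17 points, neither past the test (Fisher's exact, adjusted p = 1 and 0.991). Among well-mapped junctions the strands stood at 10 of 15 plus with 10Q, 20 of 39 with 92Q, 26 of 59 with the sgRNA alone and 17 of 28 without a targeting sgRNA.

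Protein-coding gene bodies held 168 of the 350 junctions, 48.0% (42.7 to 53.4), where such bodies cover 41.0% of the same chromosomes. A further 32 junctions lay only in the body of another gene type, such as a long non-coding RNA or a pseudogene, and 150 lay in no annotated gene. The coding share was 56.1% in the 10Q library (32 of 57, 42.4 to 69.3), 50.0% with 92Q (48 of 96, 39.6 to 60.4), 44.3% with the sgRNA alone (66 of 149, 36.2 to 52.7) and 45.8% in the non-targeting library (22 of 48, 31.4 to 60.8). It fell in the order 10Q, 92Q, non-targeting, sgRNA only, and all 4 intervals overlapped. The difference of 92Q from 10Q was -6.14 points and that of sgRNA only from non-targeting was -1.54 points (by the exact test, adjusted p = 0.991 and 1). The sgRNA-only share was 6.60 points above the 37.7% of the site 1 sgRNA-only library, which missed the test (Fisher's exact, adjusted p = 0.574). Among well-mapped junctions alone the difference was -4.40 points. Over all libraries the coding share was 48.0% at site 2 and 39.1% at site 1, and with mapping quality 30 it was 48.9% and 48.3%.

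The 168 junctions fell in 164 protein-coding genes, which were longer than genes in general. The median length of the genes hit was 92.6 kb, against 17.6 kb over all 19710 coding genes on these chromosomes. With each coding gene weighted by its length the median over all of them was 136 kb, above the median of the genes hit. Of the 164 genes, 81 were over 100 kb long, and the longest was Ptprd, a receptor tyrosine phosphatase gene of the synapse (2271 kb). Where the strand of the gene was known, the prey read ran with the gene in 71 of 131 junctions, 54.2% (45.3 to 62.9), and against it in 60. By library, reads with and against the gene numbered 13 and 14 (10Q), 18 and 16 (92Q) and 26 and 25 (sgRNA only). In the non-targeting library they numbered 14 and 5. These counts were not tested. The RefSeq tables used here give no exons, so junctions cannot be placed in an exon, intron or UTR.

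Within 5 kb of the start of a protein-coding gene lay 32 of 343 junctions, 9.33% (6.47 to 12.9), where 7.11% of the chromosomes with listed starts lies that near. Chromosome 18 had no starts in the table used here and is left out of this share. The share was 10.5% with 10Q (6 of 57), 11.96% with 92Q (11 of 92), 8.22% with the sgRNA alone (12 of 146) and 6.25% without a targeting sgRNA (3 of 48). None of the 4 pairs tested differed beyond counting error (Fisher's exact test, adjusted p between 0.574 and 1). The pairs were 92Q with 10Q, sgRNA only with non-targeting, and each of the latter libraries with its site 1 counterpart. Among well-mapped junctions it was 18.4% with 92Q (7 of 38, 7.74 to 34.3), 6.67% with 10Q (1 of 15), 3.45% with the sgRNA alone (2 of 58) and 3.57% without a targeting sgRNA (1 of 28), with intervals that overlapped. Within 1 kb of a start lay 13 of the 343 junctions, where 1.54% of the chromosomes with listed starts lies that near. Only 1 of the 13 was well mapped, in Pde4a, out of 139 well-mapped junctions on these chromosomes. These counts were not tested.

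**Figure D4:**
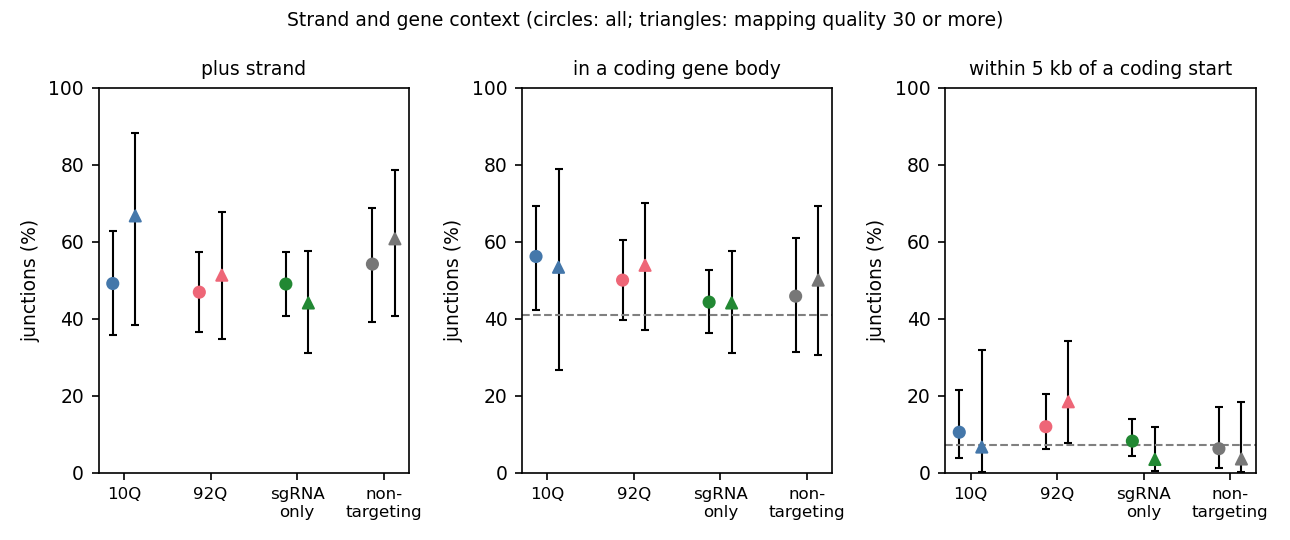
Percent of junctions (vertical axis) on the plus strand, in a coding gene body and within 5 kb of a coding gene start in each site 2 library, for all junctions (circles) and for mapping quality 30 or more (triangles), with exact 95% intervals. Dashed lines mark the covered share of the chromosomes, 41.0% and 7.11%, and the intervals of the 4 libraries overlap in each panel.

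The promoters into which junctions were mapped are shown because they give the reference sequence beside a gene start that the prey reads were assigned to. Of the 5 junctions in them 4 had mapping quality 0 and so no secure place. Of the windows from 250 bases before to 50 after a start, 4 held a junction: those of Pde4a, a cAMP phosphodiesterase gene, Serinc2, Dmrtc2, a gene of the doublesex-related family, and the non-coding RNA gene 9430014N10Rik. Apart from Pde4a these were named after their values were seen. The 3 coding ones are printed from RefSeq (GRCm38.p6, the assembly of mm10), 5′ to 3′ along the gene, from 250 bases before the start to 30 bases from it on. Capitals mark bases inside the prey alignments.
Pde4a, chr9:21196455-21196734, plus strand: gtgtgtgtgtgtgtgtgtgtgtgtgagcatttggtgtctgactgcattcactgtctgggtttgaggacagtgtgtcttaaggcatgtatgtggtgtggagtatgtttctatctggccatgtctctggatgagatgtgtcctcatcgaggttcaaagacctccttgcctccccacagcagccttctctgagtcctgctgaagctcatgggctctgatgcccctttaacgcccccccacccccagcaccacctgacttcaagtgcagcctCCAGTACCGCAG
Dmrtc2, chr7:24869807-24870086, plus strand: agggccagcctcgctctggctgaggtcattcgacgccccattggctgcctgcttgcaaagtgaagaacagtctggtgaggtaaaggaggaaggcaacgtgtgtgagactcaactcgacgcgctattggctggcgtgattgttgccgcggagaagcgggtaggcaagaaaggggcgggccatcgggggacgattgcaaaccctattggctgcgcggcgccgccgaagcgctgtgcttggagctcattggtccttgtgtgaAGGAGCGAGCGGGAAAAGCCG
Serinc2, chr4:130275557-130275836, minus strand: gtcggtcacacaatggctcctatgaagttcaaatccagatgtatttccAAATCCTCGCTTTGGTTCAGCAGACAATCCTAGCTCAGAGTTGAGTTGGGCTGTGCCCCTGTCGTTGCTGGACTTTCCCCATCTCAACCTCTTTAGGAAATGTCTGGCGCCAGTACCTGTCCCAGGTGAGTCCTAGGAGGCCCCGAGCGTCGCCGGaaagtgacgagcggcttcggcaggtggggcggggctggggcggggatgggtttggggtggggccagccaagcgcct

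The Pde4a window was entered by 2 libraries. The sgRNA-only junction lay 18 bases past the listed start, which lies inside the longer annotated gene body (position 21196723, mapping quality 0), and the 92Q junction 24 bases past it (position 21196729, mapping quality 40), both reading along the gene. The Dmrtc2 junction of the sgRNA-only library lay 9 bases past the start and the Serinc2 junction of the 10Q library 47 bases before it, and both had mapping quality 0. Neither the last 8 bases of the guide (CACCGTAA) nor those of the bait primer (GCTCTTTA) occurred on either strand in the 4 windows. Over all 32851 promoter windows of the table they occurred in 0.158% and 0.919%. The absence says only that these letters are not in these 4 windows.

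Some junctions of different site 2 libraries lay at the same base. Between libraries, 4 pairs of junctions had the same position and strand, and 6 pairs lay within 10 bp, all 6 on the same strand. The count of junctions with a partner in another site 2 library was 8 at 0 bp and 12 within 10 bp, and it had reached only 15 within 10 kb and 25 within 100 kb. As shares of the 350 these were 3.43% within 10 bp and 7.14% within 100 kb. Windows of 10 bp cover 4.42e-05% of the chromosomes around non-targeting junctions and 0.000137% around sgRNA-only junctions. With 100 kb these were 0.421% and 1.28%. Coverage around all partner libraries together was not computed. Of the 6 pairs of libraries, 92Q and sgRNA only shared most within 1 kb, 3 of the 96 92Q junctions (3.13%, 0.649 to 8.86) and 4 of the 149 sgRNA-only junctions (2.68%), where windows of 1 kb around the latter cover 0.0130% of the chromosomes. The 10Q library shared 1 of its 57 junctions with 92Q, 1 with non-targeting and 0 with sgRNA only. The non-targeting library was met by 1 of the 149 sgRNA-only and 0 of the 96 92Q junctions. Among well-mapped junctions the 92Q and sgRNA-only libraries shared 0 of 39, and of the 6 pairs only sgRNA only and non-targeting shared any, 1 of 59. All libraries were read in the same sequencing lane, and the part of this in the shared positions was not tested.

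Of the identical positions 1 was well mapped in both libraries. It lay in Map3k5, which encodes the stress-activated kinase ASK1 (chromosome 10, position 20133793, plus strand), with 1 read of quality 42 in the sgRNA-only and 1 in the non-targeting library. This position was therefore read both with and without a targeting sgRNA, and both reads covered 162 bases. In Igsf21, a synaptic adhesion gene (chromosome 4, position 140055123, plus strand), the non-targeting read had quality 42 over 162 bases and the 10Q read quality 0 over 152 bases. In Cracr2a, a calcium-channel regulator (chromosome 6, position 127599405, minus strand), the 10Q and 92Q reads had qualities 23 and 3. On chromosome 11, position 104109753, the 92Q read had quality 42 over 162 bases and the sgRNA-only read quality 0 over 141 bases. That position lies in no coding gene and is 20710 bp from Crhr1, a corticotropin-releasing hormone receptor gene. In 3 of the 4 pairs the reads thus started at the same base but differed in how many bases they covered.

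The Pde4a pair, 6 bp apart, and 3 junctions within 22 bp on chromosome 18 (positions 53764323, 53764337 and 53764345) made up the rest. The chromosome 18 group held 2 sgRNA-only and 1 92Q junction, with qualities of 2 to 6, and its nearest coding gene was Cep120, a centriole gene.

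Overlap with the site 1 libraries was counted against a longer list, whose windows cover more of the chromosomes at a given distance. No site 2 junction shared its position and strand with any of the 4163 site 1 junctions. Within site 1 the 6 pairs of libraries had 134 such matches, summed over pairs, so a position in several libraries counts repeatedly. Those matches made up between 0.615% and 13.1% of a library's list in a pair, against 0% to 2.08% within site 2. Within 1 kb of a site 1 junction lay 9 of the 350 site 2 junctions, 2.57% (1.18 to 4.83), and 22 of the 4163 site 1 junctions, 0.528%, lay within 1 kb of a site 2 junction. The windows of 1 kb around site 1 junctions cover 0.325% of the chromosomes. By library the count was 3 of 57 with 10Q, 1 of 96 with 92Q, 5 of 149 with the sgRNA alone and 0 of 48 without a targeting sgRNA, which allows a share of up to 6.25%. Against the site 1 library of the same condition alone it was 2, 0, 2 and 0. Windows of 1 kb around those site 1 libraries cover 0.171%, 0.0464%, 0.112% and 0.00868% of the chromosomes, in the same order.

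None of these 9 junctions was well mapped on either side, with site 2 qualities of 0 to 6 and site 1 qualities of at most 12. Among well-mapped junctions 0 of 141 lay within 1 kb of any of 1694 site 1 junctions, which allows a share of up to 2.13%, and the windows around these cover 0.145% of the chromosomes. Cfap97d2 on chromosome 8 (13705750 to 13744599) held 2 of the 9, both in the sgRNA-only library, at positions 13710406 and 13719711, with 4 and 3 site 1 junctions within 1 kb. A stretch of chromosome 2 over 1 Mb from the nearest coding gene, Lrrc4c, held 2 more, at 98665187 (92Q) and 98667204 (10Q), with 2 and 8 site 1 junctions within 1 kb. These 2 loci were chosen after their values were seen. At 10 kb, 26 of 350 site 2 junctions (7.43%) had a site 1 neighbour, where 3.14% of the chromosomes lies that near. Among well-mapped junctions it was 3 of 141 (2.13%, 0.441 to 6.09), against 1.43%. At 100 kb, 113 of 350 site 2 junctions (32.3%) had a site 1 neighbour, where 26.8% of the chromosomes lies that near. With well-mapped junctions these were 16.3% (23 of 141) and 13.1%.

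**Figure D5:**
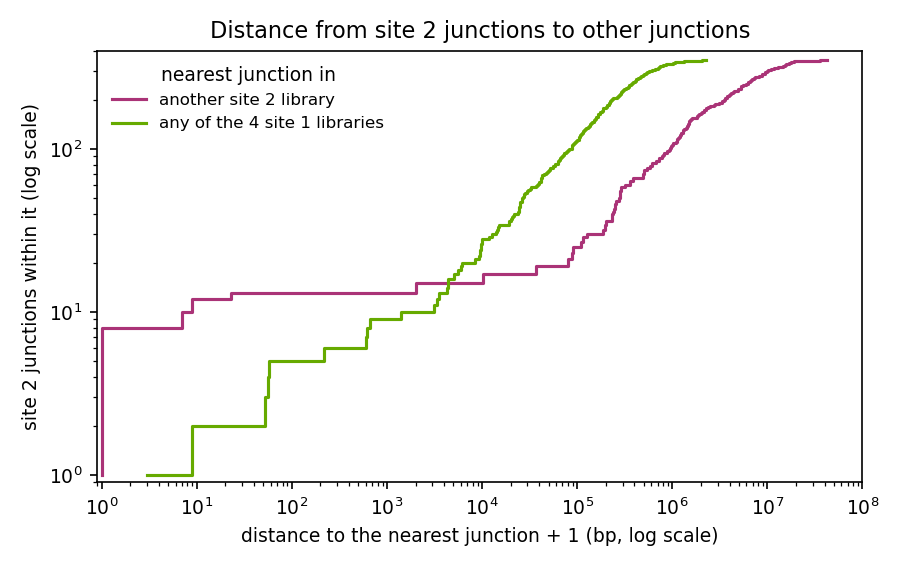
Number of site 2 junctions (vertical axis, log scale) that have a junction within a given distance (horizontal axis, bp plus 1, log scale) in another site 2 library or in any site 1 library. The site 2 curve starts at 8 junctions at 0 bp and reaches 15 by 10 kb, while the site 1 curve starts at 0 and climbs to 26 by 10 kb and 113 by 100 kb. The site 1 list is longer, at 4163 junctions, and 3.14% and 26.8% of the chromosomes lie within these 2 distances of it. For the site 2 sgRNA-only list alone, these are 0.129% and 1.28%.

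No gene stood out as a repeated partner. No gene body held more than 2 of the 350 junctions. With 2 each were Map3k5, Igsf21, Cracr2a and Pde4a, described above, and Apba1, a neuronal adaptor gene, Cfap97d2, Klhl29, a kelch-like gene, and Pard3b, a cell polarity gene. Of these 8 genes, 7 had their 2 junctions in different libraries and Cfap97d2 had both in the sgRNA-only library. The Pard3b junctions lay 10174 bp apart on the same strand, that of 92Q at quality 42 and that of 10Q at quality 0. The Apba1 and Klhl29 junctions had qualities of 0 and 24.

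Repeated reads marked 9 junctions, and 8 of these were poorly mapped. The largest were 9 sgRNA-only reads in Megf11, a gene for a membrane protein with EGF-like repeats (chromosome 9, position 64403676), and 6 10Q reads 139567 bp from Irf2bp2 (chromosome 8, position 126733553), all of mapping quality 0. The non-targeting library had 5 junctions of 2 reads, among them 1 in Dnah9, an axonemal dynein gene (quality 0), 1 in Ncf1, a subunit gene of the phagocyte NADPH oxidase (quality 8), and 1 nearest to Mindy3, a deubiquitinase gene (quality 24). The only well-mapped one was also non-targeting, at chromosome 15, position 6279759, nearest to Dab2, and was named after its value was seen. In the 92Q library the 2 such junctions lay nearest to Lingo2 (779 bp) and Dsg4, a desmoglein gene (11092 bp), both of quality 0. The other genes the naming rule gave, as the first of equal junctions with 1 read, were Krtap28-13 (10Q), Pkhd1, the fibrocystin gene (92Q), Uggt1, an ER folding-sensor gene, and Npas2, a circadian transcription factor gene (both sgRNA only), all of mapping quality 0 to 8.

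Genes grouped by function held few junctions, and none of the counts was tested. Long neural genes, where recurrent breaks are known from neural progenitors, held 3 junctions in 2 of 30 members, 0.857% of all junctions where their bodies cover 1.71% of the chromosomes. These were the Pard3b pair and 1 well-mapped sgRNA-only junction in Ptprd. Common fragile site genes, which break under replication stress, held 2 junctions in 2 of 14 members, 0.571% against a coverage of 0.809%. They lay in Rora, a nuclear receptor gene (92Q, quality 0), and Immp2l, a mitochondrial peptidase gene (sgRNA only, quality 1). Of 25 double-strand break response genes only Prkdc, the catalytic subunit of DNA-PK that acts in end joining, held a junction, from the 10Q library at quality 0. That was 0.286% of all junctions against a coverage of 0.0717%. The 14 FACT and histone chaperone genes, 15 SAGA genes, 7 polyglutamine disease genes and 15 neuroblastoma and sympathetic markers held 0 of 350 junctions each, which allows a share of up to 0.857%. Their bodies cover between 0.0161% and 0.0457% of the chromosomes, so a count of 0 could not be told apart from that coverage at this depth.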

How the data were processed

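The authors deposited 2 lists of aligned reads per library, on-cut and off-cut. Each line's only deposited value is a mapping quality, a score from 0 to 42. Per the submitters' processing notes, Bowtie2 was used, and both mm10 and mm9 appear there without a role. How reads were filtered, deduplicated and called on-cut is not given in the sources used here. Coordinates were read as mm10, against RefSeq gene tables of GRCm38.p6.

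Only off-cut reads were used. Of the genes, 44403 were kept, 19710 protein-coding, after 311 entries in the first 3 Mb of a chromosome were dropped. Gene starts came from the promoter table, for 15782 coding genes. Chromosome length ran from 3 Mb to the end of the last annotated gene. Intervals are exact Clopper-Pearson or Poisson (95%). The reads are PCR products without molecular identifiers and so no independent molecules, and intervals and zero-count limits (3 counts) cover counting error only. Shares were compared between 4 pairs of libraries by two-sided Fisher's exact tests, which compare libraries and not conditions, with Benjamini-Hochberg adjustment over 16 tests. The functions were tested on simulated data. Python 3.11.15, scipy 1.17.1 and pandas 2.3.3 were used.

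Genes were named when their body held 2 or more junctions, a list member held 1, a junction had among the 3 highest read counts of its library (ties in order of position), a junction of another site 2 library lay within 1 kb (or a site 1 junction, both well mapped), or a well-mapped junction lay within 1 kb of a coding start. Members and lists were chosen with earlier results of these data known.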

Additional observations from a re-analysis of the deposited data

Results flagged for a closer look

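The off-cut lists also held junctions on sequences that the rule left out. Chromosome 14 held 9 (10Q), 10 (92Q), 20 (sgRNA only) and 1 (non-targeting). On the other sequences the non-targeting library held 0, with 49 off-cut junctions in all against 176 in the sgRNA-only library. These small counts were not tested. Chromosome X held 3 junctions in the sgRNA-only library, 2 of them well mapped, and 1 well-mapped junction in the 10Q library. The sgRNA-only library further held 1 junction on chromosome Y, 1 on the mitochondrial genome and 2 on unplaced sequences. The 92Q library held 0 on chromosomes X and Y, the mitochondrial genome and unplaced sequences.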

How the results depend on the processing

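None of the 16 share differences passed the adjusted Fisher's exact test (1 had an unadjusted p under 0.05), and none of 100 values under other settings did. Pooled shares stayed within their intervals when any 1 library was left out. The counts of junctions for 10Q, 92Q, sgRNA only and non-targeting were 15, 39, 59 and 28 with mapping quality 30, and 1, 2, 1 and 5 with 2 or more reads. With quality 10 the first 3 were 22, 47 and 81. The site 1 overlap share of the 10Q, 92Q and sgRNA-only libraries was 0 with quality 30, quality 10 or 2 or more reads. With a 10 bp window it was 0 for 10Q and 0.671% for the sgRNA alone, and with 10 kb 6.25% for 92Q and 9.40% for the sgRNA alone. Of 36 chromosome ratios under 2 settings, 2 left their interval, and of 52 counts for named genes 16 moved.

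Several differences, none called, turned direction; they are given here in points, first library minus second. Well-mapped share, sgRNA only at site 2 minus site 1: -0.353 counted as reads, -2.01 with positions within 5 bp merged, -0.0612 without positions near non-targeting junctions and -55.4 with 2 or more reads. Plus-strand share, 92Q minus 10Q: 1.78 as reads and 50.0 with 2 or more reads. The same share for sgRNA only minus site 1 was 0.383 and 47.9, and minus non-targeting 60.0 with 2 or more reads. Coding share, 92Q minus 10Q: 0.513 with quality 30. For sgRNA only minus non-targeting it was 1.85 as reads and 60.0 with 2 or more reads, and minus site 1 -4.40 with quality 30 and -2.78 with quality 10. The share near a start for sgRNA only minus site 1 was -6.40 with quality 30, -4.10 with quality 10 and -9.31 with 2 or more reads, and minus non-targeting -0.123 with quality 30, -20.0 with 2 or more reads and -0.885 with 10 kb. It was -3.09 for 92Q minus 10Q with 1 kb. For non-targeting at site 2 minus site 1 it was 0.0215 with 1 kb and 2.86 with 2 or more reads. The cause was not tested, but 2 or more reads leaves 1 to 5 junctions in each site 2 library. At site 1 it leaves 361 with the sgRNA alone and 36 without a targeting sgRNA. No pairing by replicate was possible because each group held 1 library. Pairing by condition, given next, takes 4 unlike treatments as if they were replicates of a site. With the 4 conditions as pairs, a test chosen after seeing the data, site 2 minus site 1 was -5.27 points for the well-mapped share, 2.71 for the plus strand, 5.42 for coding bodies and -0.586 near starts (exact two-sided sign-flip permutation test, unadjusted p = 0.25, 0.625, 0.5 and 1, where 4 pairs cannot go below 0.125).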
